A study of Mus musculus with 3 samples.

Results

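Plasmacytoid dendritic cells (pDC) in the inflamed knee synovium of arthritic mice were taken as barcodes with at least 2 unique molecular identifiers (UMIs, counted RNA molecules) of Siglech, at least 1 UMI of Ccr9, Cox6a2 or Klk1, and 0 UMIs of the T cell gene Cd3e and the neutrophil gene Csf3r. Barcodes with fewer than 200 detected genes or over 20% mitochondrial UMIs were left out. These rules gave 52 pDC among 38722 kept barcodes, with 12, 29 and 11 in replicates 1, 2 and 3. The members were thus selected on the counts of these 6 genes, which are described here without a test.

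pDC are bone marrow-derived cells that circulate in blood and enter inflamed tissue. They sense nucleic acids through endosomal Toll-like receptors 7 and 9 and are known for fast and abundant secretion of type I interferon. The E protein Tcf4 (E2-2) holds their identity, opposed by the inhibitor Id2, and in arthritis they have been studied as a source of interferon and as regulators of T cells.

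The series holds single-cell RNA libraries from a DNBelab C droplet platform. All 3 libraries belong to 1 group: female wild-type C57BL/6 mice, 8 weeks old, given 100 µg type II collagen on day 0, 1 mg of an antibody cocktail against type II collagen on day 21 and lipopolysaccharide on day 22 (collagen- and antibody-induced arthritis, C&AIA), sampled at the effector phase. Each library pooled the synovium of 2 mice, 6 mice in all, and no untreated mice were analysed here. Every comparison below is therefore between cell classes inside arthritic joints, and nothing here separates what pDC always express from what arthritis changed. The synovium was dissociated with collagenase and DNase before capture.

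The libraries held 99782608 to 116125707 UMIs in 11602 to 15263 barcodes, of which 20 to 41 per library were left out. The labels state 11111, 10668 and 14363 cells, fewer than the barcodes in the matrices. Barcodes are named by running numbers, so the 2602 to 2866 names that pairs of libraries share are not shared sequences; at most 1 such pair had the same UMI total.

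Members held a median of 5551.5 UMIs (1302 to 14582) and 2164.5 genes (718 to 3547). Siglech, a receptor of the Siglec family on mouse pDC, had a median of 9 UMIs per member and at most 23. In the summed pDC of each library it reached 1454, 1780 and 1889 CPM (a gene's UMIs scaled to the same UMI total in each sum, the unit of every level below). It was at 0 in the dendritic cells, B cells and monocytes compared below, because their gates kept it out. Cox6a2, a muscle-type subunit of cytochrome c oxidase, was detected in 49 members and the gut-homing receptor Ccr9 in 44. The kallikrein Klk1 was detected in 16. Members thus entered mainly through Cox6a2 and Ccr9.

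The label was checked on 12 pDC genes that the gate did not use: Tcf4, Runx2, Spib, Bst2, Ly6d, Pacsin1, Smim5, Atp1b1, Cd7, Rpgrip1, Lair1 and Irf8. Members held a median of 10 of the 12 (range 3 to 12), and 51 of 52 held 6 or more. Among the other 38670 kept barcodes 154 held 6 or more (0.398%). Bst2 had a UMI in 52 members, Tcf4 in 51, Irf8 in 50, Ly6d in 47, Runx2 in 46, Pacsin1 in 45, and Cd7 and Lair1 in 44 each. Spib and Smim5 were seen in 30 members each and Rpgrip1 in 23. The plot of these genes per barcode shows 1 member of replicate 2 apart from the rest: it held 3 of the 12, with 23 UMIs of Cd7, 15 of Bst2, 2 of Tcf4 and none of Irf8.

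**Figure D1:**
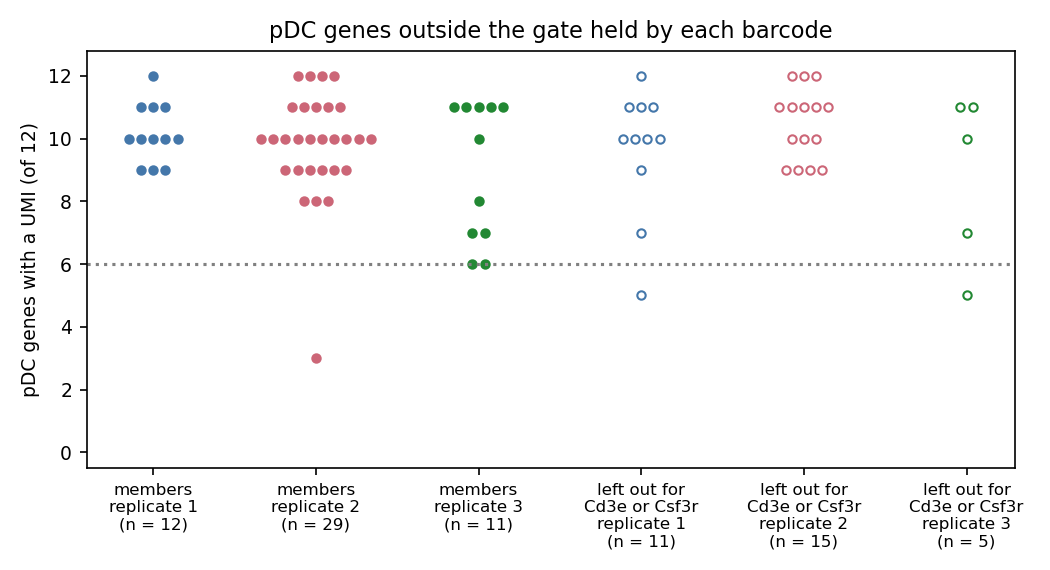
Number of the 12 pDC genes outside the gate with at least 1 UMI (vertical axis), for each member (filled points) and for each barcode that met the gate but was left out for Cd3e or Csf3r UMIs (open points), by replicate. The dotted line marks 6 genes; 51 of 52 members and 29 of 31 barcodes left out lie on or above it.

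At the edge of the gate, 2 members had exactly 2 Siglech UMIs, and they held 7 and 9 of the 12 genes. Just outside it, 5 barcodes had 2 or more Siglech UMIs but none of the 3 companion genes, and held a median of 5. Another 4 had 1 Siglech UMI with a companion gene and held a median of 4.5. A larger set was removed by the rule on Cd3e and Csf3r: 31 barcodes met every other condition. All 31 carried Csf3r, 24 of them at 1 or 2 UMIs, and 1 also carried Cd3e. They held a median of 10 of the 12 genes, as many as the members, and a median of 22 UMIs of the neutrophil genes S100a8 and S100a9 against 13.5 in members. Where adding these barcodes (83 pDC, "Csf3r barcodes" below) ended the call of a gene named with its test, the value is given; this setting was chosen after seeing the data.

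The start-site windows of 2 marker genes are shown because both hold a match to an E-box, the short motif family that E proteins such as Tcf4 bind. Each window is the 250 bases before the RefSeq gene start on GRCm38.p6, which is an older build than the one named for the deposited counts, and no count below depends on it. Both strands were searched for CAGCTG, which had no match in these windows, and for CAGGTG. Capitals mark the latter, which reads CACCTG where it lies on the other strand. Siglech lies at chr7:55767934-55768183 on the plus strand, and Bst2, the surface antigen known as PDCA-1, at chr8:71537473-71537722 on the minus strand.
Siglech: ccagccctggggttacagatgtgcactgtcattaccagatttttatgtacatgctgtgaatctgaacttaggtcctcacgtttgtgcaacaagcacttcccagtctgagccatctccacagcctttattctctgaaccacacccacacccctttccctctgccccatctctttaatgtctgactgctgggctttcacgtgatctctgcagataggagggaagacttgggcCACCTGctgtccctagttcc
Bst2: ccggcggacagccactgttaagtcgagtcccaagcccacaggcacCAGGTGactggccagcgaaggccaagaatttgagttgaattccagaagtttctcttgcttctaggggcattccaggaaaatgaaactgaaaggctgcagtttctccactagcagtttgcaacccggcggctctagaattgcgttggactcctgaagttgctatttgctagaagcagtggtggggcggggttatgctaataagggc
Of 13 genes sought (Siglech and the 12 above), 9 had a window that was used, 10 windows in all, and 3 windows held either motif. Among all 32851 windows of that length 27.7% held either motif, so a match is common and describes only these letters.

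pDC made up 0.101% of kept barcodes in replicate 1 (exact binomial 95% interval 0.0520 to 0.176), 0.251% in replicate 2 (0.168 to 0.360) and 0.0722% in replicate 3 (0.0360 to 0.129). The intervals cover counting error only. The mean was 0.141% ± 0.0960 (SD, n = 3), and the highest library was 3.48 times the lowest. The interval of replicate 2 lay above that of replicate 3 and overlapped that of replicate 1 narrowly. With the barcodes that carried Cd3e or Csf3r allowed, the shares were 0.193%, 0.381% and 0.105%, with the same library highest. When every cell was first thinned to 1000 UMIs and gated again, 34 pDC were left (3, 23 and 8) and the mean share was 0.0922%, so the number found depends on depth. Replicate 1 was then the lowest, at 0.0252% against 0.0525% in replicate 3, and the highest library was 7.90 times the lowest.

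**Figure D2:**
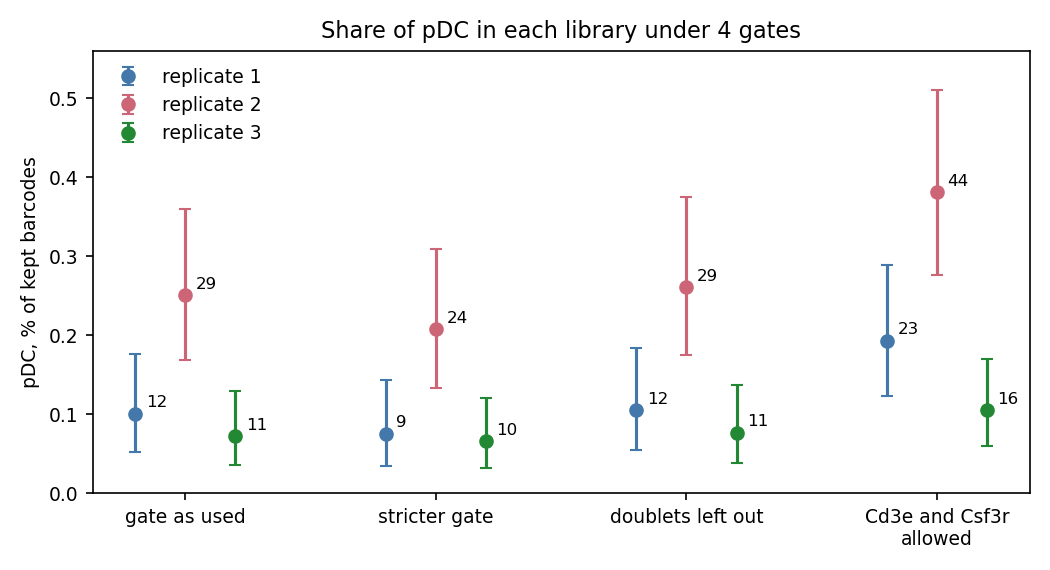
Share of pDC among kept barcodes (vertical axis, %) in each library under 4 gates, with exact binomial 95% intervals and the number of pDC beside each point. Replicate 2 is highest under each of the 4, from 0.208% to 0.381%.

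Replicate 2 also held the most cells of bone marrow type. Barcodes with at least 2 UMIs each of the granule genes Elane and Mpo, which mark early granulocyte progenitors, numbered 11, 64 and 0 in replicates 1, 2 and 3. Immature neutrophils with Ltf, Camp and Ngp made up 1.38%, 10.6% and 0.604% of barcodes. The part of marrow or blood cells in the pDC share was not tested.

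RNA of other cells was measured in the summed pDC. The B cell markers Cd79a, Ms4a1 and Pax5 and the basophil and mast cell markers Mcpt8, Cpa3, Fcer1a and Ms4a2 were at 0 in all 3 libraries. Of the conventional dendritic cell markers, Zbtb46, Xcr1 and Ccr7 were at 0 in each library and the list of 6 summed to 37.9, 98.9 and 19.7 CPM. The fibroblast markers Col1a1, Col3a1, Dcn and Prg4 summed to 3401, 3225 and 3542 CPM, a nearly even level, and the 6 neutrophil markers to 2693, 3286 and 3109 CPM. The 6 macrophage markers summed to 645, 423 and 3542 CPM, high in replicate 3. That replicate had 11 pDC, of which 1 carried 24 UMIs of Lyz2 and 19 of C1qa and another carried 59 UMIs of Lyz2; in replicate 1 a member carried 130 UMIs of Lyz2.

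If all S100a8 and S100a9 UMIs of the pDC came from free RNA in the droplets, free RNA would bring at most 13.9%, 10.6% and 36.3% of pDC UMIs in replicates 1, 2 and 3. The last value rests on 1 of the 11 members, which held 43 UMIs of S100a8 and 59 of S100a9, 102 of the 150 in that sum; without it the limit was 12.9%. The same share of each gene's level in the whole library is its free RNA limit, given below where a pDC level lies near it. The limits and the free RNA subtraction below include that member. The subtraction was made in each class compared. By the same rule the limit of the monocytes was 39.6%, 36.9% and 30.1% in replicates 1, 2 and 3, so far more was taken from them in replicates 1 and 2. No member exceeded a Scrublet doublet score of 0.2. The gates of the other classes required 0 UMIs of Siglech, so no member could meet them, and they do not check the members.

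pDC were compared with 3 other classes of the same libraries: 85 dendritic cells with at least 2 UMIs of Flt3 (Flt3-high DC), 54 B cells and 1203 Ly6c2-positive monocytes. The Flt3-high DC met none of the gates of the other cell types. They could also lie in the conventional dendritic cell gate named below, which was not excluded. UMIs were summed per class and library and tested with edgeR's quasi-likelihood test with the library as a block. Calls needed both a fold of at least 2 and a p under 0.05 after Benjamini-Hochberg adjustment over all genes tested, which is the adjusted p below; genes of either gate are not counted. The Flt3-high gate was chosen after seeing the data, because the gate first planned for conventional dendritic cells (122 barcodes) summed to 17297 to 34357 CPM of the 4 fibroblast markers; that comparison called 1758 of 6035 genes (29.1%) and is not used further. The monocyte sums held the same markers at 9464, 11270 and 9628 CPM, and the 6 neutrophil markers at 7364, 11191 and 2667 CPM, above the pDC sums except for neutrophil markers in replicate 3. Of the 428, 315 and 460 monocytes, 258, 211 and 266 met no other gate. B cells of replicate 3 held 6525 CPM of the 2 erythroid markers, against 75.3 and 115 in replicates 1 and 2. With barcodes that met more than 1 gate left out, 1756 genes were called against monocytes, where the comparison below has 1915; the part of the remaining RNA in the calls was not tested. The 3 comparisons share the pDC sums, so their results are given side by side and are not independent. The p-values come from 3 pooled libraries, and edgeR draws the spread of each gene toward that of all genes tested in the comparison. They therefore do not measure the spread of a gene over its libraries alone. The ± after a log2 difference is an approximate standard error, worked back from the F statistic of the same test. It is not an SD over libraries. After a level in CPM, ± is the SD of the 3 libraries. For differences of like size and like ± value, p was far smaller against monocytes than against Flt3-high DC. Sizes of p are not comparable between comparisons.

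Against Flt3-high DC, 733 of 3773 genes were called (19.4%), 371 higher in pDC (9.83%) and 362 lower (9.59%). Leaving out replicate 2 left 468. Against B cells, 592 of 1630 were called (36.3%), 299 higher (18.3%) and 293 lower (18%), with 373 without replicate 1 and 374 without replicate 2. Against monocytes, 1915 of 10093 were called (19%), 739 higher (7.32%) and 1176 lower (11.7%), with 1077 without replicate 2. The counts of calls in each list below are to be read beside these shares of all genes. The monocyte sums hold far more UMIs, so low genes could be tested there that could not be tested against B cells. With library totals in place of TMM scaling the split against monocytes turned, to 1041 higher and 776 lower, and the median of all genes moved from -0.24 to 0.09 on the log2 scale; small differences from monocytes should be read against that shift.

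Transcription factors of the dendritic lineages are given first. Irf8, which pDC and type 1 conventional dendritic cells both need, was at 2389, 2824 and 2676 CPM in the pDC of replicates 1, 2 and 3. It was at 151, 249 and 797 CPM in Flt3-high DC, so no library overlapped, though the DC were uneven. The difference was 2.85 ± 0.33 on the log2 scale (adjusted p = 7.8e-05). Over B cells it was 3.18 ± 0.25 (adjusted p = 1e-05) and over monocytes 4.18 ± 0.22 (adjusted p = 1.2e-79).

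Tcf4 was almost level across libraries, at 2630, 2407 and 2637 CPM in pDC. It was at 78.1, 141 and 132 CPM in Flt3-high DC, a difference of 4.30 ± 0.21 (adjusted p = 1.7e-07). B cells, which also use E proteins, were at 269, 433 and 271 CPM, and the difference was 2.85 ± 0.24 (adjusted p = 1.2e-05). In every library pDC were far above both. Endothelial cells had the highest mean after pDC among the cell classes gated, 694 ± 97.4 CPM (SD, n = 3).

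Runx2, which in pDC controls exit from the marrow, was at 1024, 1440 and 1613 CPM in pDC and at 26.0, 66.5 and 56.6 CPM in Flt3-high DC, 4.61 ± 0.24 higher (adjusted p = 1.9e-07). In B cells 1 UMI was counted, against 425 in pDC, a ratio of 279 with a counting interval of 49.8 to 11045. Bcl11a, needed by both pDC and B cells, was 3.72 ± 0.26 higher than in Flt3-high DC (adjusted p = 1.5e-06) and 6.43 ± 0.26 higher than in monocytes (adjusted p = 3.3e-125). Against B cells its difference of 0.78 ± 0.28 (adjusted p = 0.041) was under the fold of 2. Spib, an Ets factor shared by the same lineages, was at 202, 181 and 78.7 CPM in pDC and 1.59 ± 0.37 higher than in Flt3-high DC (adjusted p = 0.01). That call was lost without replicate 2 (adjusted p = 0.089) and with DESeq2 (adjusted p = 0.12). Against B cells Spib differed by 0.66 ± 0.45 (adjusted p = 0.26), with overlapping libraries.

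Of the 24 factors of this list in the files, 18 could be tested against Flt3-high DC, where 9 were higher, 4 lower and 5 not called (median 0.28 against -0.01 for all genes). The lower ones were Batf3, Relb, Id2 and Spi1. Batf3, the factor of type 1 conventional dendritic cells, had 0 UMIs in pDC and 96 in the DC, at least 15.5-fold lower when 0 is taken as 3 counts over the group. Against B cells, 11 were tested, with 5 higher and Ets1 alone lower, at -2.42 ± 0.36 (adjusted p = 0.00047). Against monocytes, 22 were tested, with 11 higher and 7 lower. Klf4, a factor of the monocyte line, was at -3.23 ± 0.46 (adjusted p = 7.7e-11). Of all genes, 9.83% were higher and 9.59% lower than in Flt3-high DC, 18.3% and 18% than in B cells, and 7.32% and 11.7% than in monocytes.

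**Figure D3:**
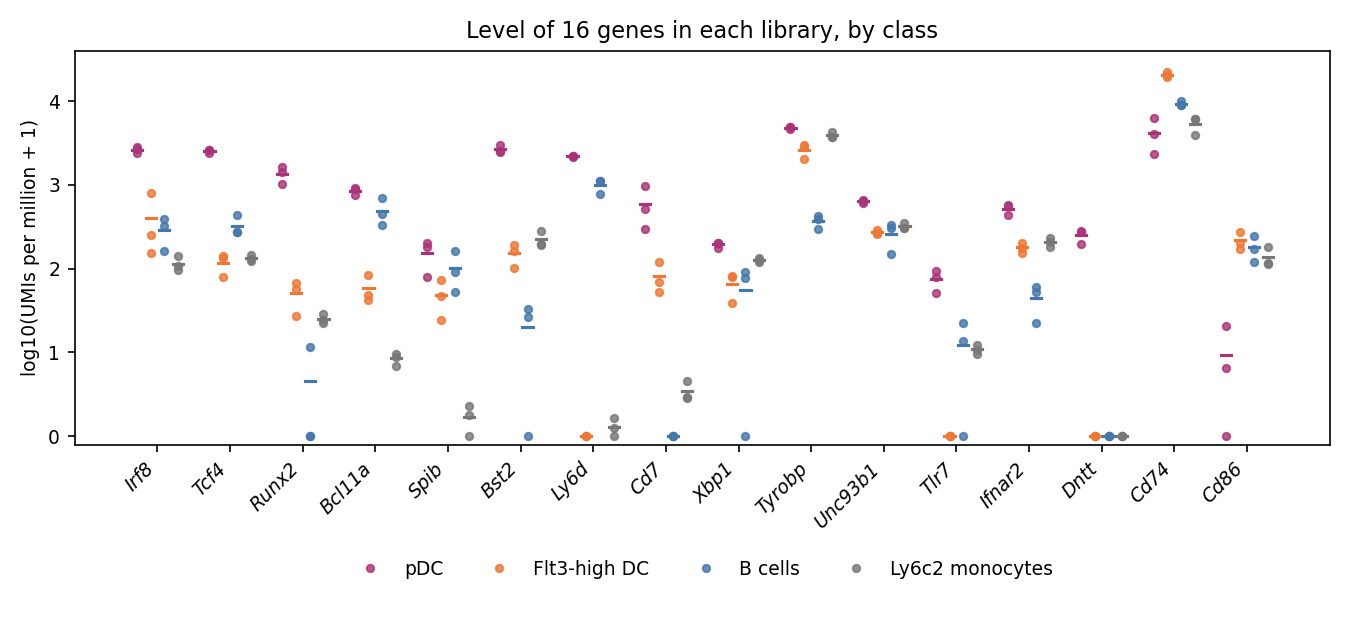
Level of 16 genes as log10(CPM + 1) (vertical axis) in the summed cells of each library (points) with the mean of 3 libraries (short lines), for pDC, Flt3-high DC, B cells and Ly6c2 monocytes. Irf8, Tcf4, Runx2 and Bst2 lie higher in pDC than in the other 3 classes in every library, while Cd74 and Cd86 lie lower than in Flt3-high DC.

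Surface and effector genes known from pDC were the next group. The list was drawn up from knowledge of pDC, so that its genes lie high in them is how the list was made. Bst2 was at 2440, 3016 and 2499 CPM, 4.03 ± 0.23 above Flt3-high DC (adjusted p = 3.4e-07), 6.61 ± 0.37 above B cells (adjusted p = 5.4e-07) and 3.23 ± 0.21 above monocytes (adjusted p = 3.4e-51). Ly6d, a small anchored surface protein of B cell progenitors and pDC, was at 2200, 2209 and 2145 CPM. Flt3-high DC had 0 UMIs of Ly6d, so pDC were at least 472-fold higher. B cells held 999 ± 188 CPM, and the log2 difference of 1.01 ± 0.19 (adjusted p = 0.002) lost the fold of 2 without replicate 3 (0.88) and with the Csf3r barcodes added (0.81).

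In all, 24 of 25 genes tested of this list were higher than in Flt3-high DC, 23 of 24 than in B cells and 22 of 26 than in monocytes. The exceptions not called were few, and Clec12a, an inhibitory C-type lectin, was the only lower one, at -1.08 ± 0.36 against monocytes (adjusted p = 0.016), a call lost without replicate 1 (adjusted p = 0.17), without replicate 2 (adjusted p = 0.18), with library totals (adjusted p = 0.13) and with the Csf3r barcodes added (adjusted p = 0.10). Cd7, an immunoglobulin-family receptor of T cells and pDC, was uneven, at 518, 956 and 295 CPM, with 0 UMIs in B cells and so at least 50.3-fold higher in pDC. Among all genes 9.83%, 18.3% and 7.32% were higher than in Flt3-high DC, B cells and monocytes.

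Genes of nucleic acid sensing followed. Unc93b1, the chaperone that carries Toll-like receptors 7 and 9 to endosomes, was at 632, 654 and 610 CPM in pDC. It was 1.09 ± 0.20 higher than in Flt3-high DC (adjusted p = 0.0021) and 1.10 ± 0.29 higher than in B cells (adjusted p = 0.01), with no library overlapping. Without replicate 3 the second difference was 0.91, under the fold of 2, and with DESeq2 it did not pass (adjusted p = 0.074). Over monocytes the difference was 0.63 ± 0.21 (adjusted p = 0.018), also under the fold of 2.

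Tlr7, the receptor for single-stranded RNA, was at 50.6, 93.4 and 78.7 CPM in pDC from 25 UMIs in 15 members. Flt3-high DC had 0 UMIs, at least 17.2-fold lower. The difference from monocytes was 2.63 ± 0.53 (adjusted p = 1.1e-05), which did not pass without replicate 2 (adjusted p = 0.12). Tlr9, the receptor for CpG DNA, had 1 UMI in all 52 members, and Tlr3 and Tlr8 had 0, which allows up to 9.62 CPM for each and leaves these 2 not detectable at this depth. Tlr12, which was outside the lists, had 16 UMIs in pDC and 0 in 1203 monocytes, at least 186-fold higher, while Tlr13 had 493 UMIs in monocytes and 0 in pDC, at least 4.71-fold lower.

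Irf7, the factor that drives interferon alpha transcription, was at 126, 44.0 and 157 CPM. It was 1.87 ± 0.57 higher than in Flt3-high DC (adjusted p = 0.034). That call was lost with DESeq2 (adjusted p = 0.15), with the Csf3r barcodes added (adjusted p = 0.068) and with free RNA subtracted (adjusted p = 0.055). Against monocytes Irf7 differed by 0.82 ± 0.39 (adjusted p = 0.13). Of this list 5 of 18 tested genes were higher than in Flt3-high DC and none lower, 3 of 7 higher and 1 lower than in B cells, and 3 of 26 higher and 6 lower than in monocytes. Over all genes tested 9.83% and 9.59%, 18.3% and 18%, and 7.32% and 11.7% were higher and lower. The lower genes against monocytes were Mb21d1, Irak3, Zbp1, Lgmn, Irf5 and Myd88. Mb21d1, the DNA sensor cGAS, had 0 UMIs in pDC and was at least 1.47-fold lower; its call was lost without replicate 1, 2 or 3 (adjusted p = 0.20, 0.34 and 0.11) and with the Csf3r barcodes added (adjusted p = 0.22).

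No interferon transcript was found. Of 21 interferon genes sought, 8 were in the matrices (Ifna4, Ifna15, Ifnab, Ifnb1, Ifne, Ifnk, Ifnz and Ifng), and each had 0 UMIs in the 311922 UMIs of the 52 pDC. A count of 0 allows up to 9.62 CPM per gene, which covers counting error only. The other 13 were not analysed here. Isg15, a ubiquitin-like protein induced by interferon, was at 0, 33.0 and 59.0 CPM, near its mean free RNA limit of 29.3 CPM (16.9 CPM without the member named above). Monocytes were at 120, 130 and 199 CPM, so every pDC library was lower, and the difference of -2.63 ± 0.42 passed (adjusted p = 1.3e-08). Against Flt3-high DC it was -1.87 ± 0.62 (adjusted p = 0.051) and was not called, though 8 alternative settings called it.

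Interferon-stimulated genes were tested as a list. Of 29 tested against monocytes, 9 were lower (Xaf1, Ifit1, Ifi204, Isg20, Isg15, Cxcl10, Gbp2, Oasl2 and Igtp) and 1 was higher, with a median of -1.05 (-0.91 with genes at 0 set to their bounds) against -0.24 for all genes. Among all genes 11.7% were lower. The higher one was Trim30a, a tripartite-motif protein, at 215, 203 and 275 CPM in pDC and 61.3 ± 8.31 CPM in monocytes, 1.53 ± 0.28 higher (adjusted p = 8.3e-07). It was also 1.87 ± 0.44 higher than in B cells (adjusted p = 0.0058), a call at the threshold without replicate 1 (adjusted p = 0.050) and lost with DESeq2 (adjusted p = 0.083). Against Flt3-high DC, Trim30a and the GTPase Ifi47 were the 2 higher genes of 10 and none was lower (median -0.08 against -0.01 for all genes). The call of Ifi47 was lost without replicate 3 (adjusted p = 0.16), with DESeq2 (adjusted p = 0.15) and with free RNA subtracted (adjusted p = 0.070). Against B cells Trim30a was the 1 higher gene of 3, and none was lower. Of all genes, 9.83% were higher and 9.59% lower than in Flt3-high DC, 18.3% and 18% than in B cells, and 7.32% were higher than in monocytes.

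Receptors of interferon followed. Ifnar1, a chain of the type I receptor, was at 139, 148 and 177 CPM in pDC. It was 2.44 ± 0.68 higher than in B cells (adjusted p = 0.014), a call lost with DESeq2 (adjusted p = 0.066). Its differences of 1.11 ± 0.39 from Flt3-high DC (adjusted p = 0.064) and 0.59 ± 0.30 from monocytes (adjusted p = 0.16) were not called. Ifnar2, the other chain, was at 569, 560 and 433 CPM in pDC. It was 1.45 ± 0.23 higher than in Flt3-high DC (adjusted p = 0.001), 3.62 ± 0.42 higher than in B cells (adjusted p = 0.0001) and 1.02 ± 0.22 higher than in monocytes (adjusted p = 4.8e-05). The last value is at the fold of 2. It was below it without replicate 2 (0.77), with free RNA subtracted (0.78), with no filter on low counts (0.88), without the 4 members described at the end (0.97), and just below it with the Csf3r barcodes added or with barcodes in more than 1 gate left out. With cells thinned to 1000 UMIs it was 0.67 (adjusted p = 0.27). Ifngr1, the ligand-binding chain of the interferon gamma receptor, went the other way: pDC were at 50.6, 54.9 and 19.7 CPM, with a difference of -2.34 ± 0.38 from Flt3-high DC (adjusted p = 0.00096) and of -2.24 ± 0.37 from monocytes (adjusted p = 2.5e-08). Its mean free RNA limit was 19.3 CPM (12.6 CPM without that member). Stat2, downstream of the type I receptor, was 1.54 ± 0.36 higher than in monocytes (adjusted p = 0.00024), a call lost without replicate 2 (adjusted p = 0.18).

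**Figure D4:**
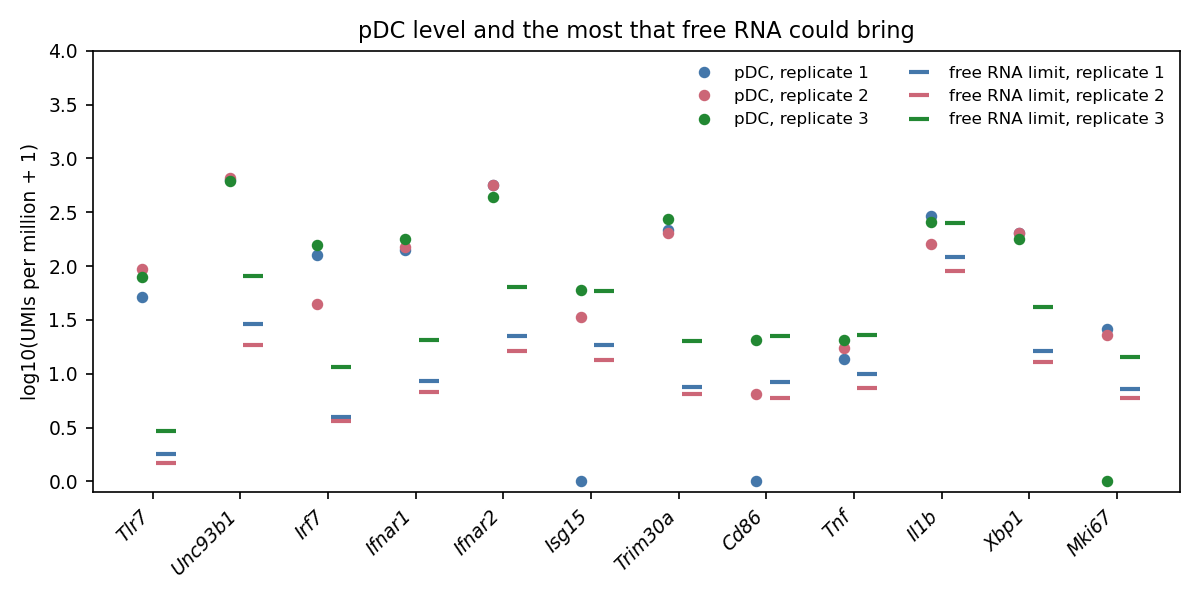
Level of 12 genes in the summed pDC of each library (points) and the most that free RNA could bring (dashes of the same colour), both as log10(CPM + 1) on the vertical axis. Tlr7, Unc93b1, Irf7, Ifnar1, Ifnar2, Trim30a and Xbp1 lie above the limit in each library, while Isg15, Cd86, Tnf, Il1b and Mki67 lie near or below it in at least 1.

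Antigen presentation genes were low beside professional antigen-presenting cells. Every 1 of the 17 tested genes in the list of MHC class II and co-stimulation was lower than in Flt3-high DC (median -3.21 against -0.01 for all genes; 9.59% of all genes were lower). Cd74, the invariant chain, was at 6207, 4017 and 2341 CPM in pDC and at 20587 ± 1382 CPM (SD, n = 3) in the DC, a difference of -2.51 ± 0.22 (adjusted p = 1.1e-05). H2-Aa, an MHC class II alpha chain, was at 2933, 1648 and 866 CPM against 11070 ± 791 CPM, a difference of -2.84 ± 0.26 (adjusted p = 1.3e-05). Both genes were highest in replicate 1 and lowest in replicate 3 among pDC, and no pDC library reached a DC library.

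The co-stimulatory ligand Cd86 had 2 UMIs in the 52 pDC and 140 in the 85 DC, a ratio of 33.9 with a counting interval of 9.20 to 282 (adjusted p = 8.1e-05 in edgeR). In pDC it was at 0, 5.49 and 19.7 CPM, beside a mean free RNA limit of 11.3 CPM, or 6.67 CPM without that member. Cd80 had 2 UMIs and Cd40 and Cd83 had 1 each. Against B cells 8 of 11 tested genes of the list were lower and none higher; H2-Aa there was -1.02 ± 0.26 (adjusted p = 0.0089) and lost the fold of 2 without replicate 2 (-0.91) without replicate 3 (-0.70), with library totals (-0.88) and with the Csf3r barcodes added (-0.44). Cd74, at -1.32 ± 0.23 (adjusted p = 0.00099), lost it without replicate 3 (-0.96) and with the Csf3r barcodes added (-0.88). Against monocytes 6 of 18 were lower and 1 higher: H2-Oa, a chain of the inhibitor H2-O, at 77.4 ± 33.9 CPM in pDC and 3.54 ± 1.17 CPM in monocytes (4.24 ± 0.60, adjusted p = 7.2e-11). Among all genes 18% were lower than in B cells, and 11.7% were lower and 7.32% higher than in monocytes.

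MHC class I and peptide loading genes were listed apart. None of 13 tested was higher than in Flt3-high DC and 2 were lower, Tap1 and Psmb9. Tap1, a chain of the peptide transporter, was even in pDC at 75.9, 76.9 and 78.7 CPM against 187 ± 30.4 CPM, a difference of -1.35 ± 0.34 (adjusted p = 0.013). Its call was lost without replicate 1 (adjusted p = 0.078) and with DESeq2 (adjusted p = 0.13). Against B cells 3 of 11 were higher, and against monocytes 2 of 15, H2-Q7 and H2-T23. Among all genes 9.59% were lower than in Flt3-high DC, 18.3% higher than in B cells and 7.32% higher than in monocytes. H2-Q7, a nonclassical class I gene, was 1.09 ± 0.25 higher than in monocytes (adjusted p = 0.00018), under the fold of 2 without replicate 2 (0.97), and may share reads with its near copies.

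Cytokine transcripts were scarce. Of 31 cytokine and chemokine genes, 13 had 0 UMIs in pDC, among them Il6, Il10, Il12b, Il18, Il23a, Tnfsf10 (TRAIL) and the cytotoxic protease Gzmb, and 19 were at or under their free RNA limit (15 without the S100a8-high member of replicate 3 in the limit). None was higher than in any of the 3 classes, while 8 of 11 tested were lower than in Flt3-high DC, 1 of 3 than in B cells and 13 of 22 than in monocytes. Among all genes 9.59%, 18% and 11.7% were lower. Tnf, at 12.6, 16.5 and 19.7 CPM near its free RNA limit in the plot of those limits, was -2.40 ± 0.56 from monocytes (adjusted p = 0.00018). Ccl22, a chemokine of mature dendritic cells, had 0 UMIs in pDC and was at least 8.55-fold lower than in the DC. Il12a, the p35 subunit of interleukin 12, had 8 UMIs in 5 members and a mean of 17.0 ± 19.6 CPM (SD, n = 3).

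Genes of the secretory pathway and lysosome were the next lists. Xbp1, the spliced factor of the unfolded protein response that secretory cells depend on, was even at 202, 203 and 177 CPM. It was 1.54 ± 0.37 higher than in Flt3-high DC (adjusted p = 0.011) and 1.96 ± 0.62 higher than in B cells (adjusted p = 0.027). Without replicate 2 neither passed (adjusted p = 0.13 and 0.15), and without replicate 1 the second did not (adjusted p = 0.068). With DESeq2 neither passed (adjusted p = 0.090 and 0.099). Against monocytes Xbp1 differed by 0.30 ± 0.27 (adjusted p = 0.49).

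Of the secretory list 5 of 27 genes were higher than in Flt3-high DC and none lower (Mzb1, Ern1, Xbp1, Sec61a1 and Hsp90b1), 9 of 17 were higher than in B cells, and 3 of 31 were higher and 1 lower than in monocytes. Mzb1, a resident endoplasmic reticulum protein of plasma cells and pDC, was at 75.9, 143 and 59.0 CPM, with 0 UMIs in the DC, at least 24.1-fold lower. Among lysosomal genes, 4 of 18 were higher than in Flt3-high DC and 8 of 12 than in B cells. Against monocytes 2 of 19 were higher and 7 lower. Beside both lists, 9.83%, 18.3% and 7.32% of all genes were higher in the 3 comparisons, and 11.7% were lower than in monocytes. Pld4, an endolysosomal nuclease that trims nucleic acid ligands of Toll-like receptors, was at 1138, 1088 and 1023 CPM, 1.48 ± 0.19 higher than in Flt3-high DC (adjusted p = 0.00017). The protease Ctsl was 2.50 ± 0.29 higher than in Flt3-high DC (adjusted p = 7.7e-05).

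Receptors for homing and adhesion followed. S1pr4, a sphingosine phosphate receptor of lymphoid cells, had 32 UMIs in pDC and 2 in the DC, a ratio of 33.1 with a counting interval of 8.44 to 285.

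Cxcr3, the receptor for Cxcl9 and Cxcl10, had 14 UMIs in 10 members and was at 25.3, 49.5 and 59.0 CPM, 5.59 ± 0.91 higher than in monocytes (adjusted p = 2.3e-08). Ccr2 was part of the monocyte gate and is given without a test: 139, 71.4 and 118 CPM in pDC and 431 ± 46.2 CPM in monocytes. Ccr7, the receptor of migrating mature dendritic cells, had 0 UMIs in pDC and 107 in the DC, at least 17.3-fold lower. Over the list, 3 of 16 genes were higher and 2 lower than in Flt3-high DC, 4 of 12 and 3 than in B cells, and 7 of 21 and 5 than in monocytes. Among all genes tested the shares were 9.83% and 9.59%, 18.3% and 18%, and 7.32% and 11.7%.

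A set of genes known from lymphoid development was present in pDC. Dntt, the template-independent DNA polymerase of V(D)J recombination, was at 278, 269 and 197 CPM and was detected in 32 of 52 members. It had 0 UMIs in the 85 DC, the 54 B cells and the 1203 monocytes, which places pDC at least 55.8-fold, 17.7-fold and 943-fold higher. Median depth per cell was 6040 to 7454 UMIs in the DC and 6965 to 8178 in the monocytes, above that of pDC in the same replicates, and 2345 to 4337 in the B cells, below it. Rag1 and Rag2, the recombinase genes, had 0 UMIs in pDC.

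Cd8a was at 152, 181 and 78.7 CPM (22 members) and the interleukin 7 receptor Il7r at 190, 209 and 236 CPM (31 members). Cd8b1 was uneven, at 531, 110 and 157 CPM, and 1 member held 38.6% of its 70 UMIs. Of the lymphoid list, 4 of 6 tested genes were higher than in Flt3-high DC (Dntt, Cd4, Cd8a and Il7r), 4 of 8 were higher and 4 lower than in B cells, and 7 of 9 were higher than in monocytes, with none lower. The 4 lower than in B cells were Cd2, Ebf1, Cd79b and Blk. Among all genes 9.83%, 18.3% and 7.32% were higher in the 3 comparisons, and 18% were lower than in B cells. Against B cells the list's median was 1.19 as fitted and -0.43 with genes at 0 set to their bounds.

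Growth factor receptors and survival genes were tested next: 2 of 18 were higher and 6 lower than in Flt3-high DC, 3 of 10 and 2 than in B cells, and 3 of 22 and 12 than in monocytes. The shares of all genes were 9.83% and 9.59%, 18.3% and 18%, and 7.32% and 11.7%. Flt3, the receptor of dendritic cell growth, was at 164, 203 and 256 CPM, 4.93 ± 0.42 higher than in monocytes (adjusted p = 4.4e-29) and 2.24 ± 0.56 higher than in B cells (adjusted p = 0.008); Flt3-high DC, gated on it, were at 423 ± 9.84 CPM. Csf2rb2, a beta chain for interleukin 3, had 64 UMIs in pDC and 0 in B cells, and was 1.98 ± 0.36 higher than in Flt3-high DC (adjusted p = 0.002). Kit, the stem cell factor receptor, had 0 UMIs, at least 9.84-fold lower than in Flt3-high DC. The survival gene Bcl2 was at 24.7 ± 13.6 CPM against 364 ± 174 CPM in B cells (-3.95 ± 0.44, adjusted p = 8.8e-05).

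Signalling by immunoreceptor motifs was the next list. The adaptor Tyrobp (DAP12), which pairs with Siglech, was at 4880, 4890 and 4624 CPM, against 3903 ± 287 CPM in monocytes (-0.08 ± 0.20 after TMM scaling, adjusted p = 0.85, not called), and 3.64 ± 0.20 higher than in B cells (adjusted p = 5.4e-07). Bank1, a B cell adaptor, had 1 UMI in pDC and 420 in B cells. Of this list 1 of 16 was higher and 2 lower than in Flt3-high DC, 2 of 11 and 4 than in B cells, and 2 of 22 and 7 than in monocytes. Over all genes the shares higher and lower were 9.83% and 9.59%, 18.3% and 18%, and 7.32% and 11.7%. The counts against Flt3-high DC and the 2 of 11 lie near these shares.

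Proliferation genes were near the free RNA limit: Mki67 had 6 UMIs in 6 members and Top2a 0, and 7 of the 13 genes listed were at or under their limit (5 without that member in the limit). Top2a was at least 3.15-fold lower than in monocytes, a call lost without replicate 2 (adjusted p = 0.092). Of 13 glycolysis genes 11 were lower than in monocytes (median -1.93; -1.84 with bounds), and 0 of 8 and 0 of 4 were called against Flt3-high DC and B cells. The dissociation-response genes, which enzymatic digestion raises, were lower than in monocytes for 10 of 15 and than in Flt3-high DC for 4 of 13. Among all genes 11.7% were lower than in monocytes and 9.59% lower than in Flt3-high DC. Called either way were 19.4% of all genes against Flt3-high DC and 36.3% against B cells. Atf3 had 3 UMIs in pDC and 34 in the DC, a ratio of 5.48 with a counting interval of 1.72 to 27.9. Its call was lost with library totals (adjusted p = 0.063), with DESeq2 (adjusted p = 0.22) and with the Csf3r barcodes added (adjusted p = 0.059). The part of digestion in other differences was not tested.

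Genes known from transitional dendritic cells, which share traits of pDC and conventional dendritic cells, were also listed. The lectin Clec10a was even at 190, 203 and 216 CPM, 4.36 ± 0.39 higher than in monocytes (adjusted p = 1.6e-26). Against monocytes 2 of 13 were higher (Clec10a and Cd209a) and 8 lower (Ms4a4c, Lyz2, Ms4a6c, Vim, S100a11, Crip1, Cx3cr1 and Cst3), and against B cells 3 of 9 were higher and 1 lower. None of 11 tested was higher than in Flt3-high DC and 7 were lower (Ms4a4c, Cst3, Cd209a, Vim, S100a11, Ms4a6c and Crip1). Of all genes, 7.32% were higher and 11.7% lower than in monocytes, 18.3% and 18% than in B cells, and 9.83% and 9.59% than in Flt3-high DC. Axl had 8 UMIs in 7 members and was at 0, 33.0 and 39.4 CPM.

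**Figure D5:**
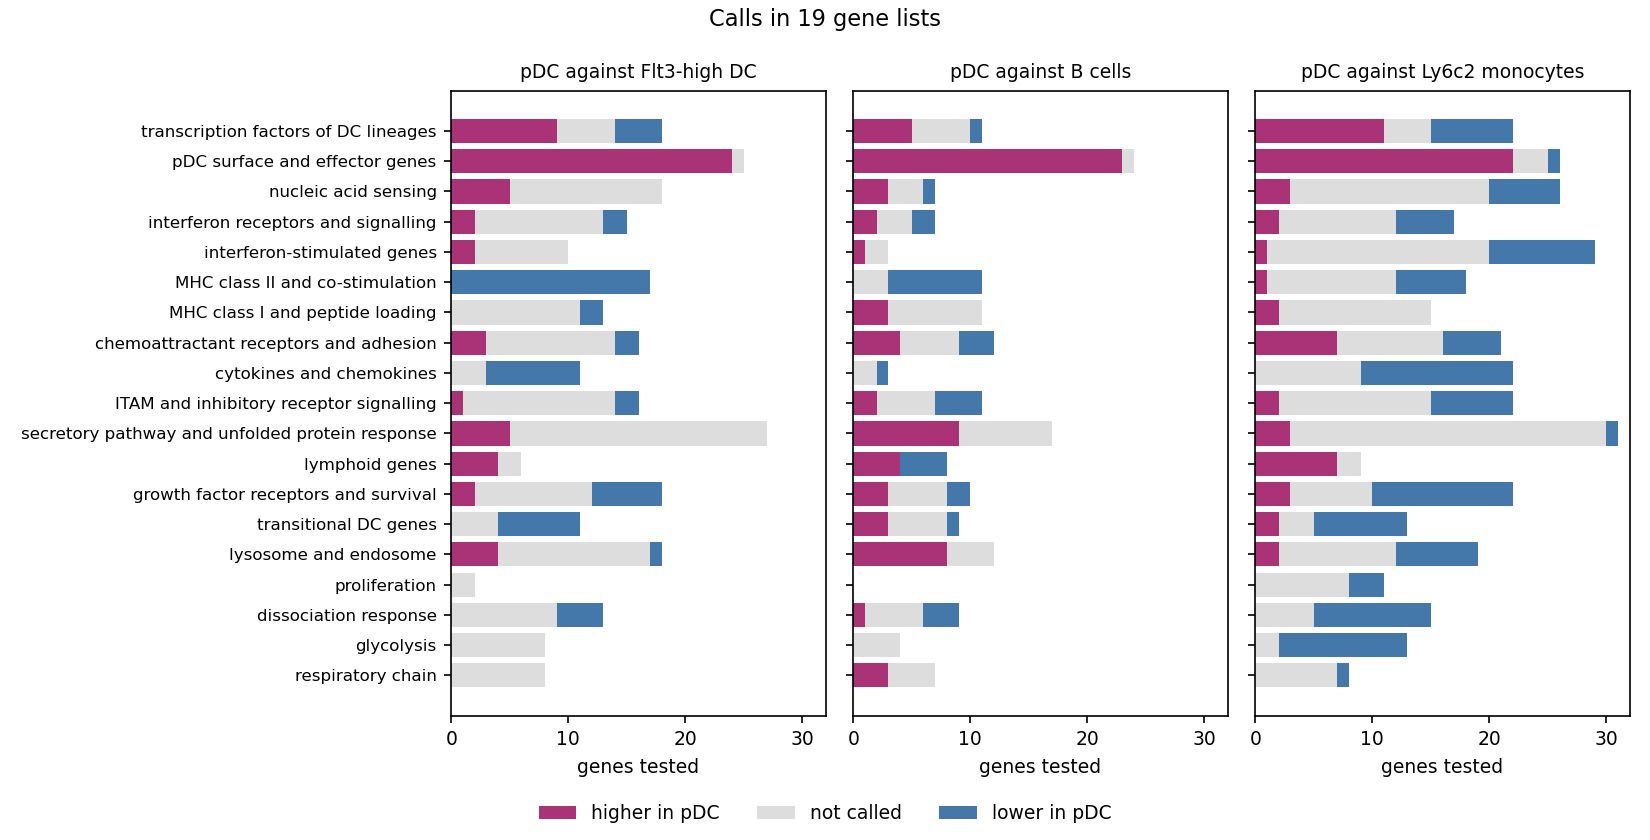
Number of genes tested in 19 lists (horizontal axis) that were called higher in pDC, called lower or not called, against Flt3-high DC, B cells and Ly6c2 monocytes. The 17 genes tested of the MHC class II list were each lower than in Flt3-high DC, and 11 of 13 glycolysis genes were lower than in monocytes.

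The 8 genes outside the lists with the highest fold were taken in each comparison. Against Flt3-high DC they were Grm8, Mctp2, Pdzd4, Ncald, Ppm1e, Tmem108, Atp2a1 and Tbxa2r. Grm8, a metabotropic glutamate receptor, was at 455, 396 and 826 CPM in pDC with 0 UMIs in the DC, at least 103-fold lower. Mctp2, a membrane protein with C2 domains, was at 771, 703 and 846 CPM, with 1 UMI in the DC. Both were also among the 8 against monocytes, with Tlr12, Sh3bgr, Atp2a1, Cacna1e, Jakmip1 and Chdh. Cacna1e, a pore subunit of a voltage-gated calcium channel, was at 518, 429 and 472 CPM in pDC and 0.747 ± 0.214 CPM in monocytes (8.82 ± 0.39, adjusted p = 3.3e-111). Against B cells the 8 were Eepd1, Atp2b4, Gria3, Cdh1, Plxdc1, Lrp8, Ddr1 and Lefty1, each with 0 UMIs in B cells and at least 10.9-fold to 19.7-fold higher in pDC.

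The 8 lower genes were taken in the same way. Against Flt3-high DC they were Ffar2, Zmynd15, Pvrl1, Ccr7, Klrb1b, Fam49a, Gm38399 and Sept3, each at 0 in pDC and at least 8.55-fold to 28.5-fold lower. Against B cells Fcmr, Cd22, Fcrl1, Pou2af1, Fcrl5, Fcer2a, Dgka and Ikzf3 were lower, most of them B cell receptors and regulators. Against monocytes Fam26f, Tbxas1, Pstpip2, Apobr, Tlr13, Sphk2, Mefv and Mtus1 were at 0 in pDC and at least 4.11-fold to 6.86-fold lower; Sphk2 was lost with the Csf3r barcodes added (adjusted p = 0.067).

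Counts of single genes differed among members. Ly6d ranged from 0 to 61 UMIs per member with a median of 9, and was undetected in 5. Cd74 ranged from 1 to 160 UMIs (median 19.5) and H2-Aa from 0 to 110 (median 7), where 1 member held 19.1% of all H2-Aa UMIs. Cox6a2, of the gate, ranged from 0 to 81. The nuclear RNA Malat1 ranged from 0 to 146 UMIs. Psap, the precursor of lysosomal saposins, was detected in every member at 2 to 57 UMIs. Without 4 members (1, 1 and 2 in replicates 1, 2 and 3) that held under 6 of the 12 pDC genes or over 20 UMIs of Lyz2 and C1qa, a rule chosen after seeing the data, 850 genes were called against Flt3-high DC, 564 against B cells and 1986 against monocytes.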

How the data were processed

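The authors deposited, per library, a matrix of UMI counts per gene and barcode. PISA 1.0 made the counts, per the file headers; Seurat 3.0.2, R 3.6 and the builds GRCm39 and mm39 are named in the submitters' processing notes. For the aligner, the annotation and the use of strand, the answer is: not given in the sources used here. Overlapping genes therefore cannot be separated.

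Barcodes were gated by raw counts of named genes and summed per class and library where 10 or more cells remained. The sums entered edgeR 4.0.16 under R 4.3.3 with filterByExpr, TMM scaling and the quasi-likelihood test. The library was a block because each library's sums share the same 2 pooled mice. DESeq2 1.42.0 was an alternative. Scrublet (scanpy 1.11.5, Python 3.11.15) scored doublets with 6% expected. The pDC sums held 79099, 181999 and 50824 UMIs. On simulated counts, log2 changes of 3 were recovered for 94.62% of changed genes against Flt3-high DC (3900 genes tested), 100% against B cells (1605) and 69.79% against monocytes (9945), and changes of 1.5 for 55.91%, 84.62% and 24.24%. The simulation gave every gene the same fixed spread and gave both classes of a library the same library effect. These rates therefore check the procedure and do not measure recovery in the real sums.

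The members and the 20 gene lists were chosen with earlier results of these data known. Named genes are, for each list and comparison, the called gene with the largest change in each direction, at 10 CPM or more in the higher class, then 8 each way outside the lists and a set named whatever the test gave. Other names complete a count, give a level, or were chosen after their values were seen.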

Additional observations from a re-analysis of the deposited data

How the results depend on the processing

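Counts of calls moved with the tool, the depth and the libraries used. With DESeq2 in place of edgeR 385 genes were called against Flt3-high DC, 317 against B cells, 1257 against monocytes and 988 against the conventional DC gate first planned. With cells thinned to 1000 UMIs the counts were 154, 99, 644 and 182, from far fewer genes tested. Leaving out each replicate gave 468 to 625, 373 to 518, 1077 to 1682 and 1020 to 1462. The stricter pDC gate left 9 cells in replicate 1, under the minimum, and called 1237 against monocytes from replicates 2 and 3. The planned conventional DC gate, with 1758 calls, gave 523 when barcodes in more than 1 gate were left out and 733 with the Flt3-high gate in its place. The pairing of classes by library comes from the shared mice; with no replicate block 736, 497, 2000 and 1345 genes were called. With library totals the split against the planned gate went from 765 higher and 993 lower to 1014 and 783. Cd63, a lysosomal tetraspanin, turned from -1.15 to 0.0584 (adjusted p = 0.94) against Flt3-high DC once Csf3r barcodes were added; the cause was not tested. Among named called genes, 38 of 49, 42 of 53 and 41 of 58 kept their call against Flt3-high DC, B cells and monocytes wherever they were tested. A setting that could not test a gene did not count as a loss. With cells thinned to 1000 UMIs only 459, 262 and 3768 genes were tested in these comparisons. The mean pDC share ranged from 0.0864% to 0.226% over the settings, beside 0.141% as gated. All lay within 1 SD of the 3 libraries (0.0960). That SD is wide, since the highest library was 3.48 times the lowest, so it hardly limits the share. The added settings and the Flt3-high comparison were chosen after seeing the data.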
